A study of Homo sapiens with 8 samples.

Results

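Mitochondrial ribosomal protein genes encode the protein part of the mitoribosome, and 78 of them were followed in HCT116 cells after silencing of YTHDF3. The members were the genes whose symbol was MRPL or MRPS followed by a number and at most 1 letter, with at least 1 protein_coding transcript, out of 33711 genes in the expression table. They carried 485 of its 134605 transcripts. Another 30 genes with symbols starting in MRPL or MRPS, mostly pseudogene entries, were left out. By their known place in the human mitoribosome, 51 members belong to the large subunit and 26 to the small subunit. MRPS30 and MRPS18A sit in the large subunit despite their names. The remaining member, MRPS36, is now known as a component of the oxoglutarate dehydrogenase complex and not of the ribosome.

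HCT116, an established line of human colorectal cancer cells, was transfected by the siRNA method with a negative control (NC) or with siRNA against YTHDF3, a cytoplasmic protein that reads N6-methyladenosine (m6A) in RNA. Each condition had 2 libraries of input RNA and 2 of RNA pulled down by an antibody to m6A (MeRIP), which made 4 groups and 8 libraries. Expression values were used for the 4 input libraries, named here NC 1, NC 2, si-YTHDF3 1 and si-YTHDF3 2, and the m6A data as 1 list of differential peaks. Both conditions were the same line with no other alteration named. The study lists a pair of YTHDF3 siRNAs and the library names differ, so the si-YTHDF3 libraries may differ in siRNA as well as in sample. Nothing in the labels stated that the libraries of a group came from separate cultures, and p-values then measure only the spread between these samples, which may be technical.

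The mitoribosome translates the few messages of the mitochondrial genome, all of which encode subunits of the respiratory chain and ATP synthase. Its ribosomal RNAs are made inside mitochondria, whereas all of its proteins are encoded in the nucleus, translated in the cytoplasm and imported. Some of these proteins descend from the bacterial ribosome, and others were added during the evolution of mitochondria. In colorectal tumour cells, as in other dividing cells, the mitoribosome is needed to keep up respiration.

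Many of these genes share short elements near their start. The promoters of 4 members are printed here because MRPL36 and MRPS24 had the largest log2 fold changes downward, MRPS34 had the largest upward, and MRPS21 was the member with a listed m6A peak. Each window holds 250 bases before and 50 bases from the annotated start, 5′ to 3′ on the strand of the gene, from RefSeq on build GRCh38.p14. Capitals mark CCGGAAG, a core recognised by ETS factors, and ATGGCGG, a core recognised by YY1, on either strand, so that CTTCCGG and CCGCCAT are also in capitals.
MRPL36 (chr5:1799788-1800087, minus strand): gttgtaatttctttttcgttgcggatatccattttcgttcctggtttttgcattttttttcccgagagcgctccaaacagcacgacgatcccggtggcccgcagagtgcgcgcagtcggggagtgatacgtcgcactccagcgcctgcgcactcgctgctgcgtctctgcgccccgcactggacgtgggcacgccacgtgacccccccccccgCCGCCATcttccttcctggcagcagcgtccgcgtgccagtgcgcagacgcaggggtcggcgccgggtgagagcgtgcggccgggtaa
MRPS24 (chr7:43869468-43869767, minus strand): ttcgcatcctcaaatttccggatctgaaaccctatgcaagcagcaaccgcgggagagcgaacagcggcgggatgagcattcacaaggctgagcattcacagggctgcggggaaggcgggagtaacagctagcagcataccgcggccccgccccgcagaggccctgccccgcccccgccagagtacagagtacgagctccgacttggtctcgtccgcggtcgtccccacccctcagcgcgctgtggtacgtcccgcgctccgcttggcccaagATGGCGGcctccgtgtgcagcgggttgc
MRPS34 (chr16:1773085-1773384, minus strand): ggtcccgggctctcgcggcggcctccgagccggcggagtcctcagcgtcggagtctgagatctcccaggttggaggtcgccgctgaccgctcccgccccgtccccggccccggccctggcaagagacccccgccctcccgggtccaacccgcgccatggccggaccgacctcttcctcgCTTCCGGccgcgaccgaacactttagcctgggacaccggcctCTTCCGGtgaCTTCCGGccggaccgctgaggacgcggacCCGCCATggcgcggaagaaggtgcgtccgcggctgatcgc
MRPS21 (chr1:150293611-150293910, plus strand): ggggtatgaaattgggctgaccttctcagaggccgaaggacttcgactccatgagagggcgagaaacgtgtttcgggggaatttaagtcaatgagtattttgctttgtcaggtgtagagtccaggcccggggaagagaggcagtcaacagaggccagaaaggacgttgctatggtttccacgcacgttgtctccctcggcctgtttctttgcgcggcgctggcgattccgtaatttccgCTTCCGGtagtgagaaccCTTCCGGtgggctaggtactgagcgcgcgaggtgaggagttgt

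The MRPL36 window held 1 YY1 core, on the reverse strand from 37 bases before the start, and the MRPS24 window held 1 on the forward strand from 22 bases after the start. The MRPS34 window held 3 ETS cores before the start and 1 YY1 core after it. The MRPS21 window held 2 ETS cores, on either side of the start. RefSeq windows were found for 69 of the 78 members. The ETS core was in the window of 30 of these 69 members (43.5%), against 12.2% of all 27305 genes with a window. The YY1 core was in that of 24 members (34.8%), against 6.66% of all genes, and 7 members held both. CATGCGC, a core recognised by NRF1 that was also searched and is not in capitals, was in the windows of 7 members (10.1%) and of 5.30% of all genes. The letters TATAAA were in the windows of 3 members (4.35%) and of 13.99% of all genes. The ETS core can overlap its own reverse complement, whereas the ETS and YY1 cores share no bases with each other. Median GC content was 60.3% over the members' windows and 58.7% over all windows. The median log2 fold change was -0.02 for the 30 members with an ETS core and 0.00 for the 39 without, and -0.10 for the 24 with a YY1 core and 0.03 for the 45 without. These are counts of letters in a fixed window and say nothing of binding. The 27305 genes were not limited to expressed protein_coding genes, whereas all members were expressed and had a protein_coding transcript. The shares among expressed protein_coding genes were not computed.

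The values of the whole table set the frame for the members. FPKM (fragment number divided by transcript length in kilobases and by the library's mapped fragments) were added over the transcripts of a gene. The depth behind them is unknown, since read numbers cannot be recovered from FPKM. YTHDF3 itself stood at 25.9 FPKM in NC 1 and 11.96 in NC 2, and at 2.53 and 3.25 in the si-YTHDF3 libraries. Both si-YTHDF3 libraries were below both NC libraries, with a log2 fold change of -2.27 (SE 0.350, limma adjusted p = 0.135). The adjusted p was 0.0251 without NC 1, 0.0042 without NC 2, 0.367 without si-YTHDF3 1 and 0.514 without si-YTHDF3 2. Of the epithelial markers searched, EPCAM had 127 to 155 FPKM and KRT8 744 to 837 FPKM, while VIL1 was listed at 0 in 3 of 4 libraries. COL1A1, a fibroblast marker, had 11.9 to 15.8 FPKM, and CD68, a macrophage marker, 1.89 to 2.99 FPKM. The summed levels of the 6 epithelial markers in the table were 1176 to 1261 FPKM in NC and 1145 to 1263 in si-YTHDF3. Those of 3 fibroblast markers were 12.05 to 15.9 and 11.96 to 13.7 FPKM, nearly all from COL1A1. Those of 4 leukocyte markers were 1.97 to 2.26 and 2.04 to 3.16 FPKM, and those of 2 endothelial markers 0.231 to 0.259 and 0.251 to 0.265 FPKM. The groups overlapped in each sum, and the part of other cells in the members' values was not tested.

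All 78 members passed the minimum of 1 FPKM over the 4 libraries. Their FPKM added up to 2237 and 2226 in NC and 2217 and 2260 in si-YTHDF3, or 0.603%, 0.600%, 0.591% and 0.590% of all FPKM. The sums of the si-YTHDF3 libraries lay on both sides of the NC sums, whereas their shares lay below both NC shares. Large subunit genes gave 1520 and 1463 FPKM in NC and 1467 and 1529 in si-YTHDF3, and small subunit genes 714.9 and 760.0 in NC and 747.7 and 728.8 in si-YTHDF3. In both subunits the ranges of the groups overlapped. In bulk RNA, a change in the number of cells of a kind and a change of RNA per cell cannot be told apart.

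Single members covered a 34.4-fold range of mean levels per length. The median member had 25.3 FPKM, against 9.42 FPKM over all 14457 genes tested, of which 21.8% lay above the median member. There were 10 members at 50 FPKM or more, 56 from 10 to 50 FPKM and 12 below 10 FPKM. The highest was MRPL12, part of the stalk that recruits translation factors to the large subunit, with 97.2 and 83.7 FPKM in NC and 98.4 and 110.6 in si-YTHDF3. Next came MRPL51, a large subunit protein with no bacterial relative (72.6 FPKM over the 4 libraries), MRPL18, a relative of a bacterial protein that binds 5S rRNA (72.1), and MRPS15, a small subunit protein with a bacterial relative (70.5). MRPS5, close to the decoding region of the small subunit, had 68.3 FPKM, and MRPL38, found only in mitochondrial ribosomes, 58.9. MRPL51 ranged from 63.0 to 87.7 FPKM and MRPS15 from 62.4 to 85.7, so that the order among the members just below MRPL12 was not resolved, and MRPL51 in NC 2 lay above MRPL12 in NC 2.

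The lowest member was MRPS36, which is no ribosomal subunit, with 2.57 and 3.22 FPKM in NC and 2.95 and 2.61 in si-YTHDF3. MRPL53 had 3.91 to 5.75 FPKM, and all of its values were above those of MRPS36. The next 4 in the order were MRPL50 (6.28 FPKM over the 4 libraries), MRPS14 (6.45), MRPL42 (6.65) and MRPL34 (7.55), whose ranges overlapped. The median large subunit gene had 28.8 FPKM and the median small subunit gene 22.5. The 47 members with a bacterial relative had a median of 30.0 FPKM and the 28 without one 23.0 FPKM, and 3 members were given to neither class.

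**Figure D1:**
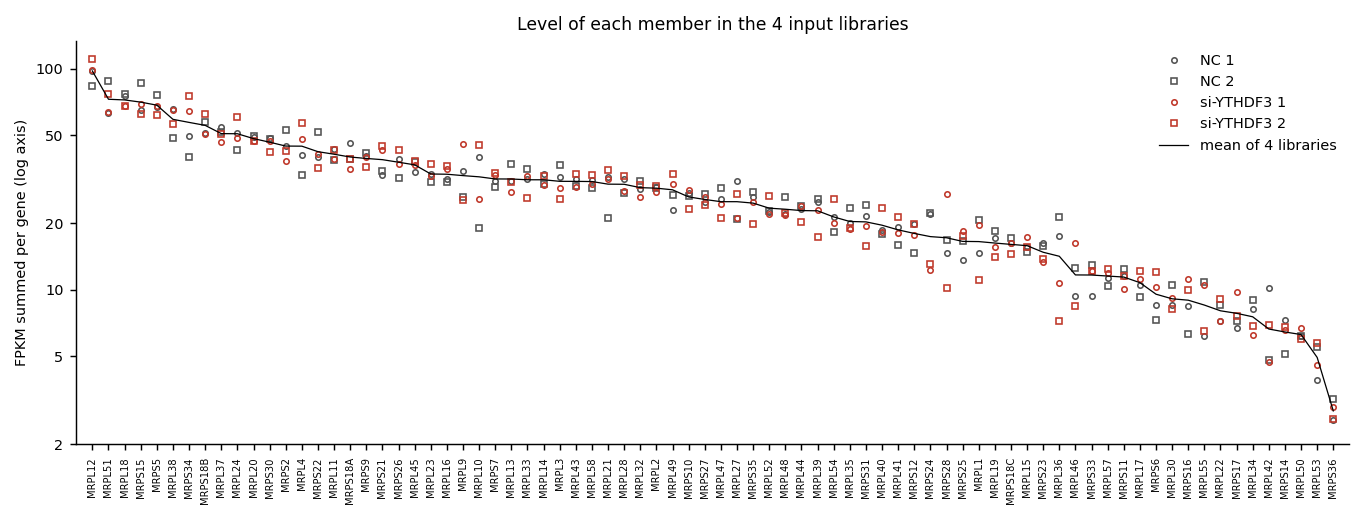
FPKM summed per gene (y axis, log scale) of the 78 members (x axis, ordered by mean), with 1 symbol per input library (circles replicate 1, squares replicate 2, grey NC, red si-YTHDF3) and a line through the means. The levels run from MRPL12 at 97.5 FPKM to MRPS36 at 2.84 FPKM, and grey and red symbols overlap for 45 of the 78 members.

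The comparison of si-YTHDF3 with NC measured how the transcripts of these genes stood when YTHDF3 was silenced. No member passed the test: 0 of 78 had a limma adjusted p under 0.05, beside 4 genes higher (0.0277%) and 0 lower (0.0%) among all 14457 genes. At an unadjusted p under 0.05, 5 members were higher in si-YTHDF3 (6.41%) against 8.29% of all genes, and 3 were lower (3.85%) against 6.53% of all genes. The lowest adjusted p of a member was 0.152, for MRPS24. Both counts at an unadjusted p could rise or fall when a single library was left out. An exact permutation test of 2 against 2 libraries cannot give a two-sided p below 0.333.

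The median log2 fold change of the 78 members was 0.01, the same to 2 decimals as the 0.01 of all genes tested. It was 0.01 for the large subunit and 0.00 for the small subunit. There were 40 members above 0 and 38 below, and 75 members lay within 0.5 of 0 on the log2 scale. Both si-YTHDF3 libraries were above both NC libraries for 14 members (17.9%), against 25.3% of all genes, and below both for 19 members (24.4%), against 23.7% of all genes. All log2 fold changes were taken after adding 1 to the FPKM, and the change of genes with few FPKM is understated by it.

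The width of the intervals shows what the 4 libraries could resolve. The 95% interval of the log2 fold change lay between -1 and 1 for 72 members and between -0.5 and 0.5 for 30 members. For the 72, a 2-fold change of FPKM + 1 either way was outside the interval. A 2-fold change of FPKM itself is a smaller step on this scale and could lie inside it for members with few FPKM. The distance from its centre to its edge had a median of 0.364 and ran from 0.284 for MRPL18 to 1.04 for MRPS28. Among the members, 1 had a change of at least 2-fold, MRPL36.

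**Figure D2:**
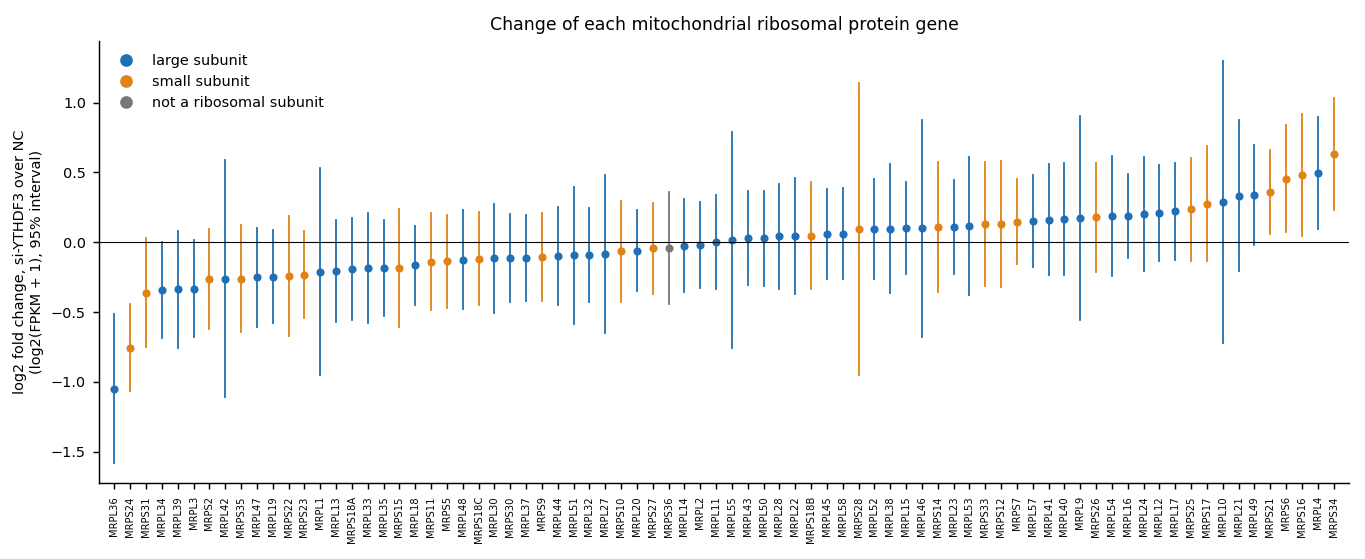
Log2 fold change of si-YTHDF3 over NC (y axis, log2(FPKM + 1) scale) with its 95% interval for the 78 members (x axis, in order of the change), 51 of the large subunit in blue, 26 of the small subunit in orange and MRPS36 in grey. The points run from -1.05 for MRPL36 to 0.63 for MRPS34, and 70 of the 78 intervals include 0.

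Among the 3 members lower at an unadjusted p, MRPL36 (chromosome 5, 1798386 to 1801366 on GRCh38, minus strand) encodes a short protein of the large subunit with a bacterial relative. It had 17.5 and 21.3 FPKM in NC and 10.7 and 7.20 in si-YTHDF3. Both NC libraries were well above both si-YTHDF3 libraries, with group means of 19.4 ± 2.69 in NC against 8.97 ± 2.50 FPKM after silencing (SD, n = 2). This was a log2 fold change of -1.05 (SE 0.215, 95% interval -1.58 to -0.51, limma adjusted p = 0.190). No other gene of the table overlapped it.

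MRPS24 (chromosome 7, 43866558 to 43869893, minus strand) is the relative of a bacterial small subunit protein at the entry of the mRNA channel. Its values were 22.0 and 22.1 FPKM in NC and 12.3 and 13.0 in si-YTHDF3, which gave 2 tight groups that lay apart. The log2 fold change was -0.76 (SE 0.126, 95% interval -1.07 to -0.44, limma adjusted p = 0.152). URGCP-MRPS24, a read-through gene on the same strand, covers MRPS24 and had 4.16 and 1.62 FPKM in NC and 0.954 and 0.445 in si-YTHDF3. Reads could be divided between these genes, so the values of MRPS24 are uncertain to that extent.

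MRPL34 (chromosome 19, 17292609 to 17306843, plus strand), a small basic protein of the large subunit with a bacterial relative, had 8.17 and 8.96 FPKM in NC and 6.24 and 6.83 in si-YTHDF3. The groups lay apart by less than 2 FPKM, and the log2 fold change was -0.34 (SE 0.138, limma adjusted p = 0.336). It overlaps ABHD8 on the opposite strand, and whether fragments were counted by strand is not given in the sources used here.

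On the higher side, MRPS34 (chromosome 16, 1771890 to 1773155, minus strand), a small subunit protein with no bacterial relative that is needed for stability of the small subunit, had the largest change. It stood at 49.3 and 39.9 FPKM in NC and at 64.1 and 74.96 in si-YTHDF3. The groups did not overlap, but the libraries of each group differed by about 10 FPKM. The log2 fold change was 0.63 (SE 0.161, 95% interval 0.23 to 1.03, limma adjusted p = 0.229), and it was 0.48 to 0.78 when single libraries were left out.

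MRPL4 (chromosome 19, 10251901 to 10260045, plus strand), which lines the exit tunnel of the large subunit, had 40.7 and 33.0 FPKM in NC and 48.1 and 56.5 in si-YTHDF3 (log2 fold change 0.50, SE 0.162, limma adjusted p = 0.281). MRPS16 (chromosome 10, 73248843 to 73252693, minus strand), a relative of a bacterial protein that takes part in small subunit assembly, had 8.43 and 6.29 FPKM in NC and 11.2 and 9.95 in si-YTHDF3 (log2 fold change 0.48, SE 0.176, limma adjusted p = 0.315). DNAJC9 overlaps MRPS16 on the same strand. In both genes each si-YTHDF3 library was above each NC library, and the spread within the groups was of the order of the gap between them.

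MRPS6 (chromosome 21, 34073224 to 34143034, plus strand), a small subunit protein with a bacterial relative, had 8.51 and 7.29 FPKM in NC and 10.3 and 12.1 in si-YTHDF3, with a log2 fold change of 0.46 (SE 0.154, limma adjusted p = 0.293). When transcripts were weighted by their length this change was 0.01. A retained_intron transcript of 3934 bases, the longest shown for this gene, had 1.53 and 2.55 FPKM in NC and 1.23 and 0.708 in si-YTHDF3. SLC5A3 shares its strand and part of its span. MRPS21 (chromosome 1, 150293720 to 150308979, plus strand), whose bacterial relative acts at the start of translation, had 33.0 and 34.6 FPKM in NC and 42.7 and 44.6 in si-YTHDF3. Relative to its level its groups were the tightest of the 5 higher members, at 33.8 ± 1.10 FPKM in NC against 43.7 ± 1.31 in si-YTHDF3 (SD, n = 2), for a log2 fold change of 0.36 (SE 0.121, limma adjusted p = 0.293).

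**Figure D3:**
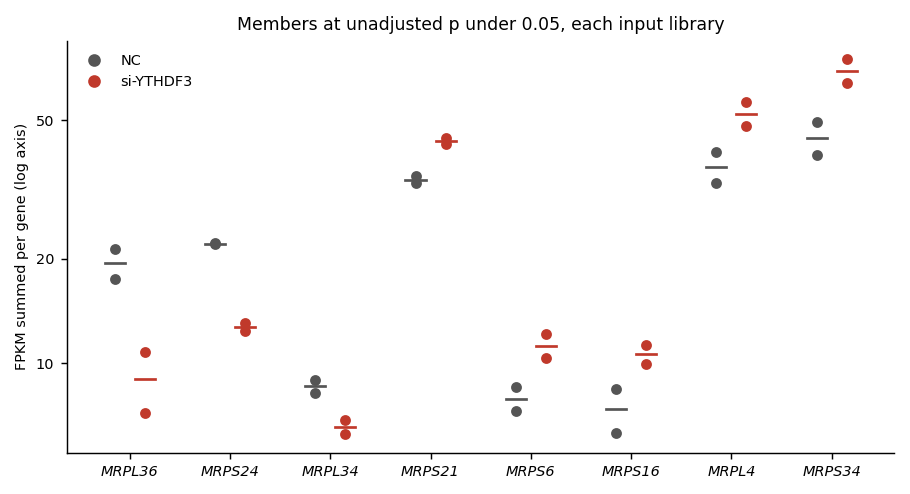
FPKM summed per gene (y axis, log scale) of the 8 members at an unadjusted p under 0.05 (x axis), with 1 point per input library and a bar at the mean of each group (grey NC, red si-YTHDF3, n = 2). The groups lie apart in all 8, from MRPL36 at 19.4 and 8.97 FPKM to MRPS34 at 44.6 and 69.6 FPKM, and none of the 8 has an adjusted p under 0.05.

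Members of known roles were then described one by one. In the stalk region, MRPL12 had a log2 fold change of 0.21 (SE 0.138) with both si-YTHDF3 libraries above both NC libraries. MRPL11, at the base of the stalk, had 43.4 and 38.5 FPKM in NC and 38.96 and 43.0 in si-YTHDF3, a log2 fold change of 0.00 (SE 0.135). MRPL10, which anchors MRPL12, had 39.9 and 19.1 FPKM in NC and 25.6 and 45.0 in si-YTHDF3. The log2 gap of 1.03 between its NC libraries was the largest of the 78 members, and its log2 fold change of 0.29 had an SE of 0.405. The sign of this change turned with the choice of libraries and transcripts, since it was -0.22 without NC 2, -0.10 without si-YTHDF3 2 and -0.34 over protein_coding transcripts alone.

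Around the decoding centre, MRPS12, the relative of the bacterial target of streptomycin, had 19.8 and 14.6 FPKM in NC and 17.7 and 19.8 in si-YTHDF3. MRPS5 had a log2 fold change of -0.14 (SE 0.133), and the values of its groups overlapped. MRPS7, which organises the head of the small subunit, had 31.0 and 29.1 FPKM in NC and 33.0 and 33.7 in si-YTHDF3, apart but close, with a log2 fold change of 0.15 (SE 0.123). MRPL45, at the exit of the tunnel next to the inner membrane, had 33.9 and 38.0 FPKM in NC and 36.7 and 38.2 in si-YTHDF3. MRPL44, a relative of RNase III at the outside of the large subunit, had 23.1 and 24.0 FPKM in NC and 23.9 and 20.2 in si-YTHDF3. MRPL41, of the large subunit, had 19.2 and 15.9 FPKM in NC and 18.1 and 21.4 in si-YTHDF3. The ranges of these last 3 members overlapped between the groups.

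The 3 paralogues MRPS18A, MRPS18B and MRPS18C occupy different places in the mitoribosome. MRPS18B was the highest at 55.3 FPKM over the 4 libraries, MRPS18A had 39.8 and MRPS18C 16.0, and their ranges did not meet. Their log2 fold changes were 0.05 (SE 0.154), -0.19 (SE 0.146) and -0.12 (SE 0.134). MRPL46 and MRPS11 on chromosome 15 point away from each other with 33 bases between them. MRPL46, a large subunit protein with no bacterial relative, had 9.41 and 12.6 FPKM in NC and 16.3 and 8.43 in si-YTHDF3, whereas MRPS11, a small subunit protein on the platform, stayed between 10.1 and 12.4 FPKM in all 4 libraries. The high value of MRPL46 in si-YTHDF3 1 had no counterpart in MRPS11.

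Part of the variation lay within the groups. The median absolute log2 gap between the libraries of a group was 0.178 for NC and 0.161 for si-YTHDF3, and the median absolute log2 fold change of the members was 0.158. For 21 of the 78 members the absolute log2 fold change was larger than both of the member's own gaps. The share of all genes for which this holds was not computed. Gaps over 0.5 were seen in 5 members between the NC libraries and in 7 between the si-YTHDF3 libraries. MRPS28, a small subunit protein, had 14.6 and 16.7 FPKM in NC, 27.1 in si-YTHDF3 1 and 10.2 in si-YTHDF3 2. Most of the high value came from ENST00000519120, a short protein_coding transcript with 20.5 FPKM in si-YTHDF3 1 and 0 in si-YTHDF3 2. MRPL42, of the large subunit, had 10.2 FPKM in NC 1 and 4.70 to 6.93 in the others, and ENST00000393128 had 6.15 FPKM in NC 1 and was listed at 0 elsewhere.

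Transcripts of the members were next compared, each of which was given its own FPKM. A member had a median of 5 transcripts, from 1 to 29. Protein_coding transcripts held 82.7% and 81.1% of the members' FPKM in NC and 81.7% and 83.1% in si-YTHDF3, retained_intron transcripts 7.25% and 8.43% against 8.04% and 7.17%, and nonsense_mediated_decay transcripts 3.499% and 3.91% against 3.36% and 3.94%. Shares of the groups overlapped in each class. The leading transcript held a median of 64.2% of a member's FPKM and was protein_coding for 71 members. It was the same in all 4 libraries for 65 members, and for 0 members did it differ between the groups while agreeing within both.

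At the level of single transcripts, 2 met the rule of at least 5 FPKM in a group and less than 0.1 of that in the other with the libraries apart. The rule was applied to the 485 transcripts of the members alone. The share over all transcripts was not computed, so this count cannot be set against a background. ENST00000480842, a processed_transcript of MRPL18, had 20.2 and 18.5 FPKM in NC and 0.956 and 0.0812 in si-YTHDF3. The protein_coding transcript of MRPL18, ENST00000367034, had 42.7 and 34.5 FPKM in NC and 51.2 and 54.7 in si-YTHDF3. The gene as a whole had 75.5 and 77.1 FPKM against 67.9 and 68.0, a log2 fold change of -0.16 (SE 0.114, limma adjusted p = 0.524).

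The other was ENST00000310614 of MRPL48, a protein_coding transcript with 0.0162 and 0.0444 FPKM in NC and 5.26 and 5.30 in si-YTHDF3. In the same gene, which encodes a large subunit protein, the nonsense_mediated_decay transcript ENST00000508278 had 5.25 and 4.94 FPKM in NC and 0.351 and 1.74 in si-YTHDF3. The sum over MRPL48 was 22.1 and 26.3 FPKM in NC and 21.8 and 22.3 in si-YTHDF3, and the groups overlapped in this sum. Exchanges of this size also occurred between libraries of 1 group. For MRPL10, ENST00000290208 had 32.2 FPKM in NC 1 and 1.499 in NC 2, and the nonsense_mediated_decay transcript ENST00000421763 had 0.123 in NC 1 and 7.83 in NC 2. For MRPL36, ENST00000505059 had 12.2 FPKM in NC 1 and 4.70 in NC 2 against 1.58 and 1.71 in si-YTHDF3, while ENST00000382647 had 1.88, 14.7, 7.996 and 4.57 in the order NC 1, NC 2, si-YTHDF3 1 and si-YTHDF3 2. Fragments shared by overlapping transcripts cannot be assigned to 1 of them directly, so these transcript values are less certain than the sums per gene.

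**Figure D4:**
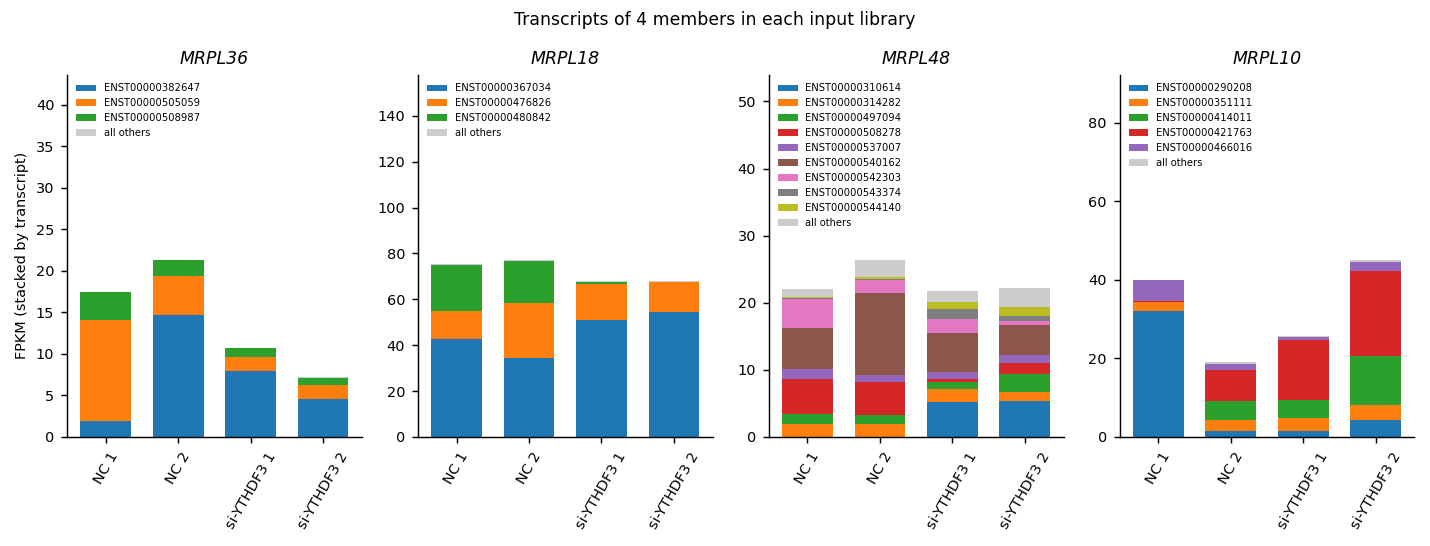
FPKM per input library (y axis, stacked) of the transcripts of MRPL36, MRPL18, MRPL48 and MRPL10 with at least 1 FPKM in a group, with all other transcripts of the gene in light grey. ENST00000480842 of MRPL18 has 20.2 and 18.5 FPKM in NC against 0.956 and 0.0812 in si-YTHDF3, while ENST00000290208 of MRPL10 has 32.2 FPKM in NC 1 and 1.499 in NC 2.

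The m6A data bore on 1 member. The list of differential peaks used here held 99 peaks, all on chromosome 1, with 94 of them in genes on the plus strand, and it may not be a complete list. Of the 8 members on chromosome 1, MRPS21 and MRPL37 are on the plus strand. A peak was listed in MRPS21, from 150294218 to 150308979 on GRCh38, annotated as 5' UTR of ENST00000614145. It was made of 2 blocks, of 232 bases from 150294218 and of 932 bases from 150308048 to the end of the gene. ENST00000614145 is 1226 bases long and ends where the longer block ends. The label of 5' UTR therefore does not place the m6A within the transcript. Its fold enrichment of precipitated over input RNA was 2.59, against a median of 1.44 and a range of 1.08 to 3.82 over the list, and 4 peaks had a higher value. The other 7 members on chromosome 1, MRPL9, MRPL20, MRPL24, MRPL37, MRPL55, MRPS14 and MRPS15, overlapped no peak of this list. ENST00000614145 itself had 22.3 and 27.3 FPKM in NC and 32.9 and 33.5 in si-YTHDF3 in the input libraries. The list gives no value per library, so no error can be set beside the enrichment.

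Genes that work with the members were examined in the same way. Mitoribosomal proteins with other symbols, DAP3, PTCD3, CHCHD1, AURKAIP1 and GADD45GIP1, had 0 of 5 at an unadjusted p under 0.05 and a median log2 fold change of 0.12. DAP3, a GTP-binding small subunit protein, had 55.4 and 57.8 FPKM in NC and 57.5 and 52.7 in si-YTHDF3. Of 23 assembly factors, 1 was higher and 0 lower at an unadjusted p, against 8.29% and 6.53% of all genes. Their median was 0.10, and 6 were above and 4 below without overlap, against 25.3% and 23.7% of all genes. The 1 at an unadjusted p was MRM1, a methyltransferase of the large rRNA. It had 3.76 and 3.47 FPKM in NC and 4.68 and 5.67 in si-YTHDF3 (limma adjusted p = 0.316). Of 15 mitochondrial translation and mRNA factors, 0 passed either way and the median was 0.00. Without overlap, 3 were above and 4 below, against 25.3% and 23.7% of all genes. Their log2 fold changes ran from -0.34 to 0.37, the highest being that of TUFM. TUFM, the elongation factor that brings tRNA to the mitoribosome, had 183 and 135 FPKM in NC and 188 and 221 in si-YTHDF3, above the NC libraries in both (limma adjusted p = 0.399).

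The mitochondrial rRNAs differed by less than the spread of their libraries. MT-RNR2, the large rRNA, had 53.8 and 51.1 FPKM in NC and 56.1 and 43.6 in si-YTHDF3, and MT-RNR1, the small rRNA, 10.0 and 7.42 against 9.31 and 7.78. MT-RNR1 thus lay below the median member at 25.3 FPKM. How much rRNA was kept when the libraries were made cannot be read from these values, so they may not measure rRNA in the cells. The 82 cytosolic ribosomal protein genes tested, taken by symbol with their close paralogues, had a median log2 fold change of 0.07, with 7 higher and 0 lower at an unadjusted p. Of these 82, 23 were above and 4 below without overlap, against 14 and 19 of the 78 members. Over all genes tested, 25.3% were above and 23.7% below without overlap, and 8.29% were higher and 6.53% lower at an unadjusted p. None of the 82 had an adjusted p under 0.05, and the difference between these lists was not tested.

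**Figure D5:**
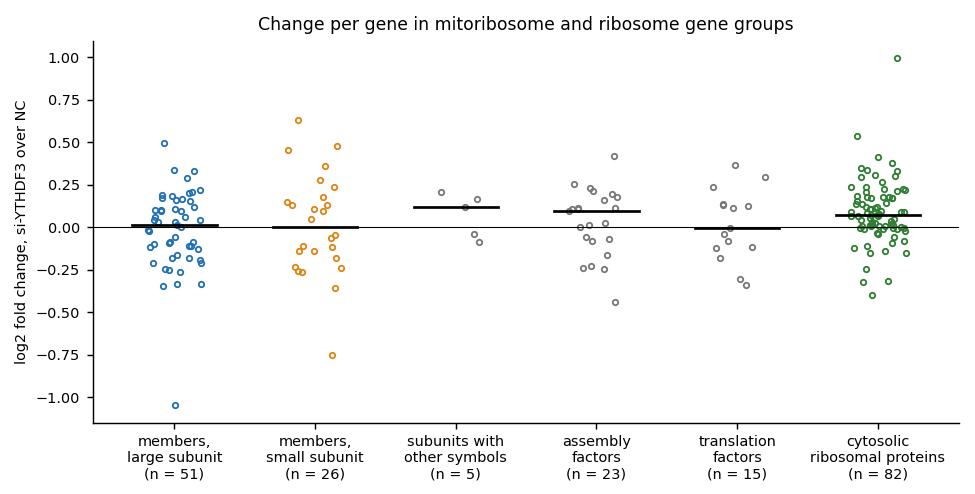
Log2 fold change of si-YTHDF3 over NC (y axis) of each gene (points, spread sideways at random) in 6 groups (x axis), with a bar at the median of the group. The medians are 0.01 for large subunit and 0.00 for small subunit members and 0.07 for cytosolic ribosomal proteins, and the points of all groups lie on both sides of 0.

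The values of some members rest on shared sequence. The table held 29 pseudogene entries named after 19 members, of which MRPS31P5 (8.29 FPKM over the 4 libraries), MRPL45P2 (6.30) and MRPS31P4 (6.05) were the highest. MRPS31, a small subunit protein with no bacterial relative, had 21.6 and 24.2 FPKM in NC and 19.5 and 15.8 in si-YTHDF3, and fragments could be divided between it and these copies. Another gene overlapped 47 of the 78 members, on the same strand for 21 of them and on the opposite strand for 36.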

How the data were processed

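HCT116 cells were transfected with siRNA by the jetPRIME method, and fragmented input and m6A-precipitated RNA (Magna MeRIP kit) were read on an Illumina NovaSeq sequencer. Groups and replicate numbers came from the sample titles. The aligner, quantifier and peak caller were not given in the sources used here, and the submitters' processing notes name GRCh38 as the build.

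For the 4 input libraries the authors deposited FPKM of each Ensembl transcript, scaled to transcript length and mapped fragments. Depth is unknown and no counting interval is given. The deposited peak list gives, per peak, the position, the annotation and a fold enrichment, the ratio of IP over input for both conditions together. Both deposited tables also hold the authors' own comparisons (fold changes, log2 changes, p-values and q-values), which were not used.

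FPKM were summed per gene, and genes with a mean of at least 1 FPKM entered limma 3.58.1 (R 4.3.3; lmFit, then eBayes with trend) as log2(FPKM + 1), 2 against 2 libraries, no covariate, Benjamini-Hochberg adjustment over 14457 genes at 0.05. The test was checked on simulated data. Figures used matplotlib 3.10.9. Members and gene lists were chosen with earlier results of these data known. Promoter windows of 300 bases came from RefSeq.

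Members named were those at an unadjusted p under 0.05 (at most 12 per direction), the 6 highest and 6 lowest by level, and those of a stated role. Transcripts had to reach 5 FPKM in a group. Other members named for a wide spread, a neighbour or a pseudogene (MRPS28, MRPL46, MRPS11, MRPS31), the list genes DAP3, MRM1 and TUFM and the transcripts shown beside those of the rule were chosen after their values were seen. Alternatives were another pseudocount, filters, scales, transcript sums, a replicate block, no trend and each library left out.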

Additional observations from a re-analysis of the deposited data

How the results depend on the processing

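The median log2 fold change of the members was -0.021 on the TPM scale, -0.0082 with upper quartile scaling and -0.0193 with transcripts weighted by length, against 0.01, and that of all genes was -0.014, -0.0021 and 0.0075 under these settings, against 0.01. The cause was not tested. With length weights 3 members were higher at an unadjusted p, against 9.25% of all genes, and MRPS6 had a log2 fold change of 0.0084 in place of 0.46.

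Leaving out 1 library at a time gave 1 to 6 members higher and 2 to 5 lower at an unadjusted p, against 4.57% to 8.10% and 3.5% to 6.32% of all genes. It gave 0 members at an adjusted p, against 67 genes without NC 1, 56 without NC 2 and 0 without si-YTHDF3 1 or without si-YTHDF3 2. It put 19 to 31 above and 27 to 34 members below without overlap (fewer libraries are compared). The share of all genes without overlap was not computed for these settings, so these counts cannot be set against a background. The median log2 fold change of the members was -0.0362 to -0.0025, against 0.0037 to 0.0162 for all genes. YTHDF3 had a log2 fold change of -2.80 to -1.74, with an adjusted p of 0.0251 without NC 1, 0.0042 without NC 2, 0.367 without si-YTHDF3 1 and 0.514 without si-YTHDF3 2.

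Replicate numbers are shared by the groups, but nothing says that they pair the samples, and the deviations of same-numbered libraries correlated at -0.112 over all genes and -0.459 over the members. With a replicate block, 3 members were higher at an unadjusted p (7.32% of all genes) and 1 was lower at an adjusted p, MRPL36 (log2 fold change -1.05, adjusted p = 0.0432), while 132 genes passed in all against 4, and YTHDF3 (-2.27) had an adjusted p of 0.0003. With the pairs crossed, chosen after seeing the data, 4 members were higher and 4 lower at an unadjusted p, against 10.4% and 8.79% of all genes, and 0 genes passed the adjusted threshold. At a minimum of 5 FPKM 15 genes passed, none of them among the 76 members tested, and with no filter 0 of 33711 passed.

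Depth is unknown, and with 2 libraries a group the interval of a member's log2 fold change reached a median of 0.364 to either side.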
